A study of Rattus norvegicus with 6 samples.

Results

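Immediate early genes are switched on within minutes of a stimulus, before any new protein is made, and most encode transcription factors that drive a later wave of genes. FOS and JUN family proteins pair through leucine zippers into the AP-1 factor, EGR proteins bind GC-rich sites through zinc fingers, and NR4A1 is an orphan nuclear receptor. In beta cells glucose, incretins and other calcium or cAMP signals induce several of them, and the handling of a tissue, such as the digestion that frees islets, is also known to do so. The 10 members described here are Fos, Fosb, Jun, Junb, Jund, Atf3, Egr1, Egr2, Nr4a1 and Ier3, chosen by name from 18625 named genes of the deposited table, where all 10 were found. Ier3 encodes a stress-induced regulator of cell survival rather than a DNA-binding protein, and Jund, unlike the other Jun genes, is widely expressed in unstimulated cells.

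Total RNA of freshly isolated rat pancreatic islets was sequenced in 3 fetal libraries, from embryonic day 19 (E19), and in 3 postnatal ones. The titles of the postnatal libraries give 2 weeks of age, whereas the age field reads week 2 for replicate 1, week 3 for replicate 2 and week 4 for replicate 3, so the later group is called postnatal. No treatment or genetic change is named for either group, and the sources used here give neither the strain nor the number of animals behind a library. Expression is given as scaled CPM, that is counts per unit of a library size adjusted between libraries (CPM after that scaling). Whether the replicates are separate animals is not stated, and the p-values reflect the variation among these 6 libraries, part of which may be technical.

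The recovered depth ranged from 26051449 to 37819935 reads per library. Markers of islet hormones took 0.424% ± 0.200 of the reads before birth and 7.17% ± 3.53 after it (mean ± SD, n = 3 each), and those of acinar cells, which make digestive enzymes in the exocrine pancreas, took 7.07% ± 1.07 and 26.4% ± 10.3. Acinar markers thus outweighed hormone markers in each of the 6 libraries labelled as islets. Postnatal replicate 1, with 38.3% acinar reads, and fetal replicate 2, with 0.884% of reads from liver markers, stood apart within their groups. Mesenchymal markers took 0.248% ± 0.0521 and 0.934% ± 0.413, endothelial markers 0.0335% ± 0.00790 and 0.0793% ± 0.0339, and erythroid markers 0.703% ± 0.411 and 0.113% ± 0.0463. Wilson 95% intervals of these shares in single libraries extended no further than 0.0176 percentage points to either side, and they describe counting error alone. Of the markers matched in the 11 lists, none was at 0 reads in all 6 libraries. The part of these shifts in the values of the members was not tested, and in bulk RNA fewer cells of a type cannot be told apart from less RNA per cell.

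The RefSeq promoter windows of the rat assembly GRCr8 cover 250 bases before and 50 bases after a transcript start, and 6 members had one: Fosb, Junb, Jund, Egr1, Egr2 and Nr4a1. The upstream 250 bases of 5 of them are shown, because these windows hold matches to the cAMP response, EGR or CArG letters described here, while that of Fosb held a TATAAA match alone. Capitals mark matches, on either strand, to TGACG (the core of the cAMP response element, also contained in its full form TGACGTCA), to GCGNGGGCG (an EGR site), to TATAAA and to the CArG box bound by serum response factor. The windows lie at chr19:40080876-40081125 on the plus strand for Junb, chr7:134259888-134260137 on the plus strand for Nr4a1, chr16:18769772-18770021 on the minus strand for Jund, chr18:26736828-26737077 on the plus strand for Egr1 and chr20:21054442-21054691 on the minus strand for Egr2.
Junb: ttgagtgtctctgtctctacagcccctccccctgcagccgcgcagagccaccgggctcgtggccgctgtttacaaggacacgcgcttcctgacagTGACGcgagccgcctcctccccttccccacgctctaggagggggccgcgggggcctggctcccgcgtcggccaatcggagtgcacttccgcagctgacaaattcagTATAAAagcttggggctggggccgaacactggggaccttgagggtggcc
Nr4a1: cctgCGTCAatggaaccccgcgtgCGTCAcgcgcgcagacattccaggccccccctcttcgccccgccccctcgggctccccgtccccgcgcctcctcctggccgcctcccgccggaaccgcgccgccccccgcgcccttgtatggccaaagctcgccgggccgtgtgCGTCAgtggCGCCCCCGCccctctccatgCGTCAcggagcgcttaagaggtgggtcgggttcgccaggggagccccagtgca
Jund: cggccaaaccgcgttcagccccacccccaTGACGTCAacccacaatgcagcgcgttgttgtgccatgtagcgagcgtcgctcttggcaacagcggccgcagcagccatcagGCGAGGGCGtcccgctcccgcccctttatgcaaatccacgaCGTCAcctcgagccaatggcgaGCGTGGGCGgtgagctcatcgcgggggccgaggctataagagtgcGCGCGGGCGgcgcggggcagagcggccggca
Egr1: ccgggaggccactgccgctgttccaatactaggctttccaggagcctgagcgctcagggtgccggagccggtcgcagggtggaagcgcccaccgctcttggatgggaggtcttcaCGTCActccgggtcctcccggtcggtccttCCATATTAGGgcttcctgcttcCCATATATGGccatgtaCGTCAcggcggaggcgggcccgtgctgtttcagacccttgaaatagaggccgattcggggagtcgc
Egr2: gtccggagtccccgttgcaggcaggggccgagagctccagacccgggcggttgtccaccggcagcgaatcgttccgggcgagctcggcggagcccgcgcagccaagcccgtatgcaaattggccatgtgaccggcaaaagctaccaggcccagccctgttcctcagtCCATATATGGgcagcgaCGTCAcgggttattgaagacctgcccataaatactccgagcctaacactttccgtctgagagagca

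Positions are counted back from the transcript start, whose preceding base is -1. For Nr4a1, Egr2 and Fosb that start lies inside the annotated gene. The outer end of the gene is at 134247153 for Nr4a1, 21055201 for Egr2 and 88089506 for Fosb. Sequence before those outer ends was not searched, so counts and absences hold for the given windows only. Egr1 and Egr2 carried the same CArG letters, CCATATATGG, at the same place, -83 to -74, and TGACG on the minus strand of each window at -66 to -62. Egr1 had another CArG box, CCATATTAGG, at -105 to -96. A CArG box was present in 1.64% of all 33469 promoter windows. TGACG was present in 21.2% of them; Nr4a1 held 4 copies, Jund 3 (of which 2 are the overlapping ends of TGACGTCA), Egr1 2 and Junb and Egr2 1 each. The full form TGACGTCA, found in 1.83% of windows, was present in Jund at -221 to -214. GCGNGGGCG, found in 4.98% of windows, occurred 3 times in Jund and once in Nr4a1, while TATAAA (14.2% of windows) was present in Junb at -49 to -44 and, on the opposite strand, in Fosb at -180 to -175. The AP-1 letters TGANTCA (7.33% of windows) were in none of the 6 windows. A match of letters is a description of the sequence only.

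Among the 10 members, 4 rose after birth (Junb, Atf3, Nr4a1 and Ier3), 2 fell (Jun and Jund), and 4 did not pass the test (Fos, Fosb, Egr1 and Egr2), by limma on log2(scaled CPM + 1) at a Benjamini-Hochberg adjusted p under 0.05. Over all 12926 genes tested, 30.0% were higher and 33.1% lower by the same rule, and 63.1% were called in either direction. Calls were higher in 47.5% of cases, in 25.9% with scaling to the plain column sum and in 61.2% after rescaling without the 20 highest genes, which moved the median of all genes to -0.36 and 0.20. The median log2 fold change of the members was 0.22, against -0.03 for all genes tested. It was 0.55 without postnatal replicate 1, 0.39 without fetal replicate 1, 0.16 without postnatal replicate 2, 0.10 without fetal replicate 3 and 0.06 without postnatal replicate 3, and -0.10 with scaling to the plain column sum. All 10 passed the filter on low values. The members that rose and fell without overlap between groups were those same 4 and 2, where 33.1% of all genes tested lay wholly above, 36.9% wholly below and 70.0% one or the other. The rises of those 4 were at least 2-fold, as were 14.8% of all genes tested.

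**Figure D1:**
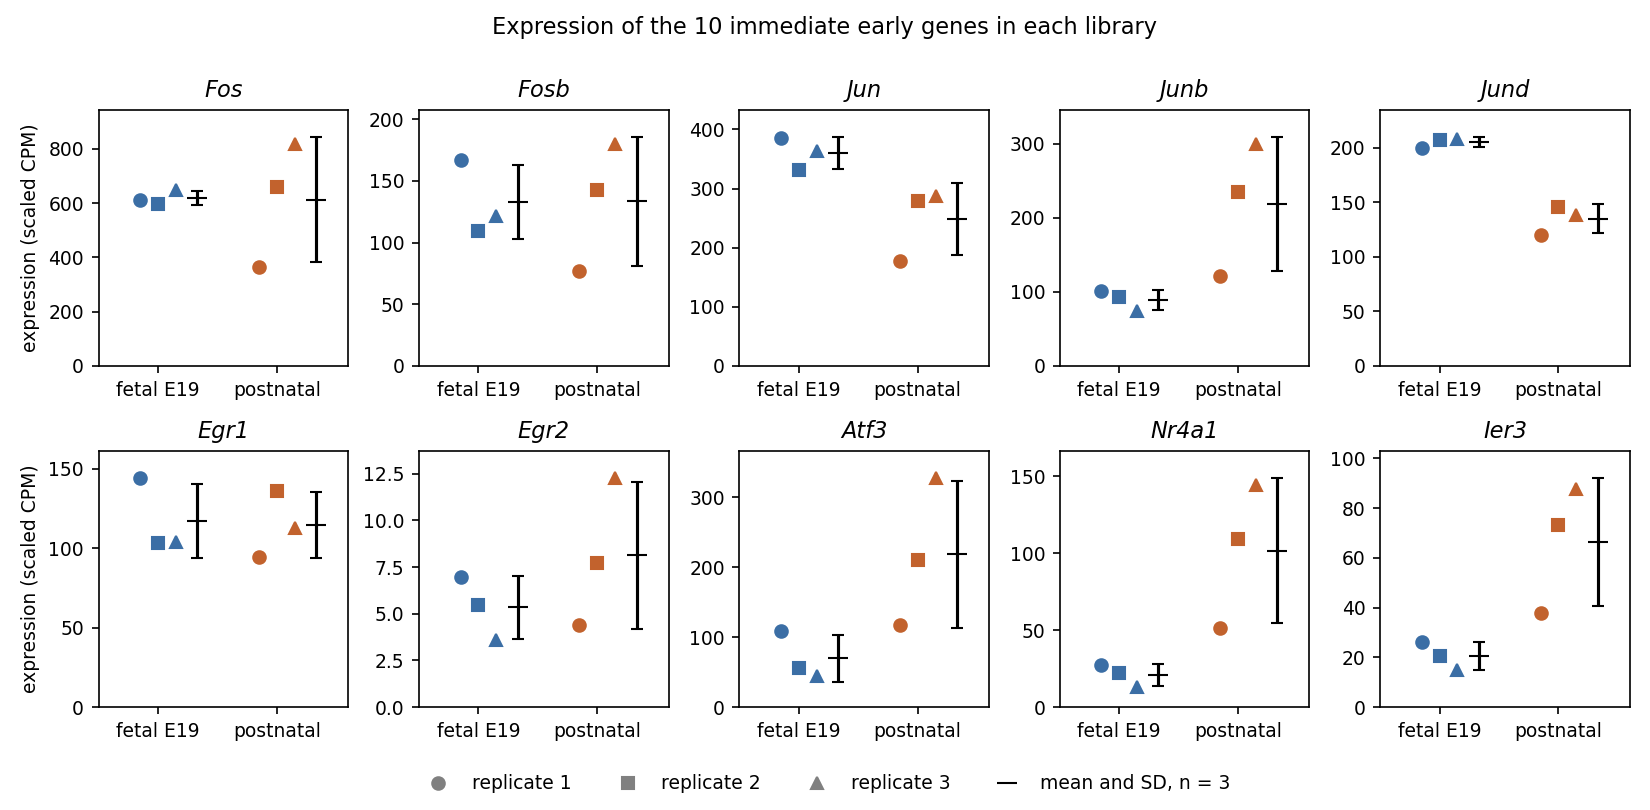
Scaled CPM of each member (vertical axes, starting at 0) in the 3 fetal E19 and 3 postnatal libraries, with marker shapes for replicates and a bar for the mean ± SD. Nr4a1, Junb, Atf3 and Ier3 lie higher in every postnatal library than in any fetal one, Jun and Jund lie lower, and postnatal replicate 1 is the lowest postnatal library for each of the 10.

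Within AP-1, the means of the Fos genes before and after birth differed by less than the spread between libraries. Fos, the founding member and a partner that cannot form dimers with itself, stood at 612, 598 and 647 scaled CPM in fetal replicates 1, 2 and 3 and at 364, 659 and 818 in postnatal replicates 1, 2 and 3. The fetal libraries lay close together, while the postnatal ones enclosed them from both sides. The means were 619 ± 25.4 and 614 ± 229.9 (SD, n = 3), the log2 fold change was -0.09 ± 0.28 (SE) with a 95% interval of -0.73 to 0.56, and limma's adjusted p was 0.794. Changes within those bounds could not be resolved with these libraries.

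Fosb, a close paralog of Fos, stood at 167, 109 and 122 in the fetal and 77.4, 143 and 180.2 in the postnatal libraries. The groups overlapped, and postnatal replicates 1 and 3 were the lowest and the highest of all 6. Its log2 fold change was -0.05 ± 0.30 (95% interval -0.76 to 0.65; limma adjusted p = 0.888). For both Fos genes the sign of the difference turned when libraries were rescaled without the 20 highest genes (0.15 and 0.19) or without postnatal replicate 1 (0.25 and 0.29), with no call in either case.

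Jun, whose protein is the main activating partner of FOS, stood at 385, 332 and 364 in the fetal libraries and at 178, 279 and 288 in the postnatal ones. All 3 postnatal values were below the lowest fetal value. The log2 fold change was -0.57 ± 0.19 (limma adjusted p = 0.0331). This call did not hold in 10 of 22 alternatives: the adjusted p was 0.0933, 0.0531 and 0.0871 without fetal replicates 1, 2 and 3 (log2 fold changes -0.52, -0.62 and -0.56), 0.0599 with the replicate number as a block (-0.57), 0.241 after rescaling without the 20 highest genes (log2 fold change -0.33) and 0.465 after quantile normalization (-0.20). Without postnatal replicate 1 the fall was smaller, -0.34, and the call held (limma adjusted p = 0.0329).

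Jund, whose product often restrains growth where JUN promotes it, fell with the smallest error of the members. It stood at 199.7, 207 and 208 before birth and at 120.4, 146 and 138 after it. Both groups were tight and far apart. The log2 fold change was -0.60 ± 0.10 (limma adjusted p = 0.00158), and it stayed between -0.95 and -0.34 with an adjusted p of at most 0.0325 over 22 alternatives.

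Junb, encoding the Jun protein that is a weaker activator than JUN and can oppose it, moved the other way. Its values were 101, 92.4 and 73.7 in the fetal libraries and 122, 234 and 299.9 in the postnatal ones. Every postnatal library was above every fetal one, postnatal replicate 1 by the least. The mean went from 88.9 ± 13.8 to 219 ± 90.0, a log2 fold change of 1.21 ± 0.31 (limma adjusted p = 0.00978). When columns were scaled to their plain sum, the rise was 0.86 and the call was lost (adjusted p = 0.105).

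Atf3, a stress-induced bZIP factor related to both AP-1 and CREB proteins, showed wide spread in both groups. It stood at 108, 55.8 and 44.5 before birth and at 117, 210.3 and 327 after it. Fetal replicate 1 and postnatal replicate 1 came close to each other, and the groups still did not overlap. The mean went from 69.5 ± 34.1 to 218 ± 105, a log2 fold change of 1.62 ± 0.42 (limma adjusted p = 0.0110). Scaled to the plain column sum, the rise was 1.27 with an adjusted p of 0.0559.

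**Figure D2:**
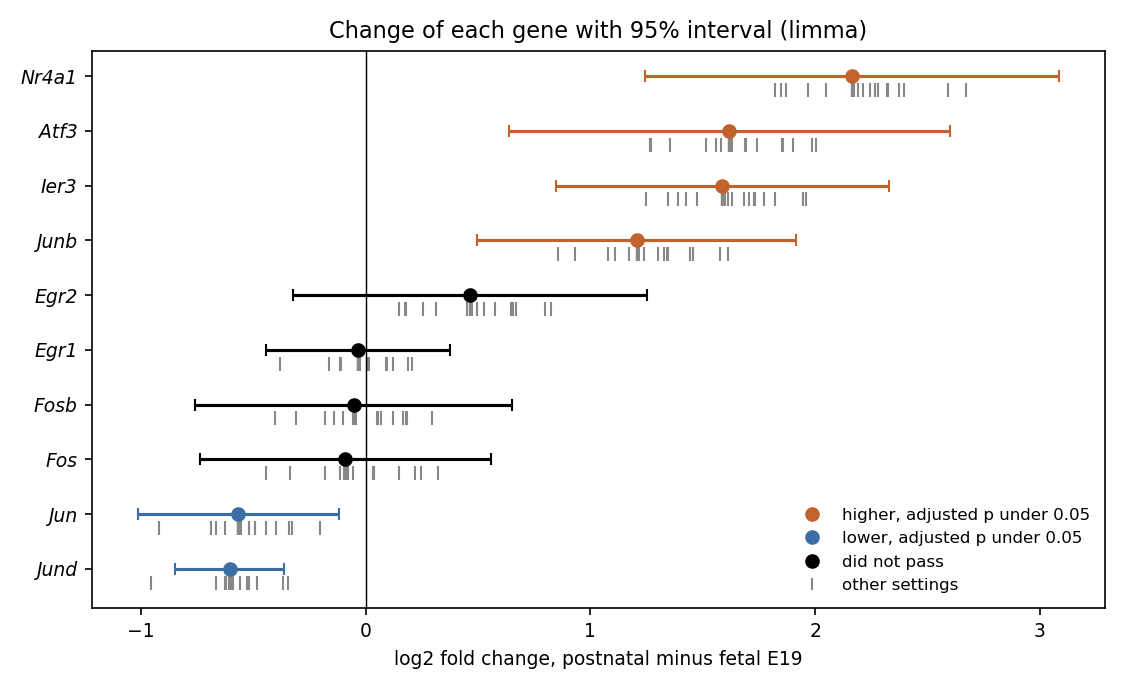
Log2 fold change of each member, postnatal minus fetal E19 (horizontal axis), with its 95% interval from limma and, as grey ticks, the value in each of 22 other settings. Nr4a1, Atf3, Ier3 and Junb lie to the right of 0 in all of them, Jun and Jund to the left, and the ticks of Fos, Fosb and Egr1 fall on both sides. The ticks of Egr2 also lie to the right of 0 (0.15 to 0.83), while its 95% interval spans 0.

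The EGR genes did not pass the test. Egr1, a zinc finger factor induced by growth factors and by depolarization, stood at 144, 103 and 104 in the fetal and at 94.5, 136 and 113 in the postnatal libraries. The ranges overlapped almost fully. The log2 fold change was -0.03 ± 0.18 (95% interval -0.44 to 0.38; limma adjusted p = 0.882), and its sign turned under rescaling without the 20 highest genes (0.21). Egr2, known for its role in Schwann cell myelination and in lymphocytes, was counted with 87 to 359 reads per library, the fewest of the members, so that counting error alone came to as much as 10.7% of a value, while the libraries of a group varied by 31.5% before and 48.5% after birth (coefficient of variation). It stood at 6.97, 5.45 and 3.61 before birth and at 4.40, 7.71 and 12.3 after it. Its log2 fold change of 0.47 ± 0.34 did not pass (limma adjusted p = 0.259), and it depended on single libraries. It was 0.80 without postnatal replicate 1 (limma adjusted p = 0.0343), 0.15 without postnatal replicate 3 (0.689) and 0.25 without fetal replicate 3 (0.587), and 0.18 with scaling to the plain column sum (0.746). Of 6 markers of Schwann cells and glia tested on the same scale, 3 were higher and 2 lower after birth, with a median log2 fold change of 0.81. Over all genes tested, 30.0% were higher and 33.1% lower. The read share of these markers was 0.00783% ± 0.00197 before birth and 0.00582% ± 0.00246 after it, and the groups overlapped. The part of these markers in Egr2 was not tested.

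Nr4a1, the orphan receptor also called NUR77, showed the largest rise of the members. Its values were 27.2, 22.5 and 13.0 in the fetal libraries and 51.1, 109 and 145 in the postnatal ones. The lowest postnatal value was well above the highest fetal one. The mean went from 20.9 ± 7.22 to 102 ± 47.2, and the log2 fold change was 2.16 ± 0.40, or 4.48-fold (limma adjusted p = 0.00213). It ranged from 1.82 to 2.67 over 22 alternatives and passed the test in all of them.

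Ier3 rose as well. It stood at 26.3, 20.5 and 15.0 before birth and at 37.7, 73.4 and 87.7 after it, again without overlap. The log2 fold change was 1.59 ± 0.32 (limma adjusted p = 0.00332), between 1.25 and 1.96 over 22 alternatives with a call in each. Mean shares of hormone, acinar, mesenchymal and endothelial markers were higher after birth beside these 4 rises. Those of erythroid and duct markers were lower, the latter 0.110% before and 0.0540% after birth. Endothelial shares overlapped between groups, with 0.0425% in fetal replicate 2 and 0.0412% in postnatal replicate 1. The part of these shares in the rises was not tested.

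Ratios within a library hardly depend on how libraries are scaled, and Jund, the member with the least spread, served as the reference. The log2 ratio of Nr4a1 to Jund was -2.83, -3.15 and -3.90 in fetal replicates 1, 2 and 3 and -1.22, -0.42 and 0.06 in postnatal replicates 1, 2 and 3, a difference of 2.77. The ratio rose by 2.22 for Atf3, 2.19 for Ier3 and 1.81 for Junb. Egr1, whose own level did not pass the test, stood at -0.469, -0.995 and -0.996 relative to Jund before birth and at -0.35, -0.10 and -0.29 after it, a difference of 0.57 without overlap. Egr2 differed by 1.07, also without overlap. For Fos (0.51) and Fosb (0.55) the groups overlapped, and the ratio of Jun to Jund differed by 0.04. Jund itself fell by 0.60 on the log2 scale, which is larger than the whole difference for Egr1, Fosb, Fos and Jun. That fall alone raises every such ratio, and Egr2, like Egr1, overlapped between groups on its own scale. The share of all genes whose ratio to Jund does not overlap was not computed, so the number of ratios without overlap has no background. The exact two-sided permutation test over libraries gave p = 0.1 for each of the 6 ratios without overlap (n = 3 per group), the smallest value that 3 against 3 allow, or 0.15 after Benjamini-Hochberg adjustment over 9 ratios. It gave p = 0.3 for Fos, 0.2 for Fosb and 0.9 for Jun by the same exact test.

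The libraries of a group differed in the same way for most members. In the postnatal group all 10 members were lowest in replicate 1, which was the case for 39.6% of all genes tested, and 8 of the 10, all except Jund and Egr1, increased in the order of the labelled weeks 2, 3 and 4, against 21.0% of all genes tested. The highest postnatal library exceeded the lowest by 2.83-fold for Nr4a1, 2.80-fold for Atf3, 2.24-fold for Fos and 1.21-fold for Jund. In the same libraries acinar markers took 38.3%, 21.5% and 19.5% of the reads at weeks 2, 3 and 4, hormone markers 4.06%, 6.45% and 11.01%, and mesenchymal markers 0.478%, 1.28% and 1.04%. With 1 library per labelled week, age, cell mix and the individual preparation cannot be told apart. In unscaled CPM of the recovered reads all 10 members were again lowest in replicate 1, but so were 88.3% of all genes tested, and 7 of 10 followed the order of the weeks, against 37.8%.

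In the fetal group replicate 1 was the highest library for 8 of 10 members, all except Fos and Jund, and for 27.1% of all genes tested. After rescaling without the 20 highest genes it was the highest for 10 of 10, against 49.8% of all genes tested. Atf3 was 2.44-fold higher there than in the lowest fetal library, Nr4a1 2.09-fold, Egr2 1.93-fold and Fos, at the most, 1.08-fold between any fetal libraries. Fetal replicate 2 held the most liver transcripts (0.884% of its reads, against 0.0374% and 0.0399% in fetal replicates 1 and 3). It was the lowest fetal library for Fos, Fosb, Jun and Egr1. For Atf3, Nr4a1, Egr2, Junb, Jund and Ier3 it was between the others. Without fetal replicate 2 and postnatal replicate 1 together, Junb rose by 1.61, Atf3 by 1.90, Ier3 by 1.96 and Nr4a1 by 2.67. Egr2 then passed too (0.83; limma adjusted p = 0.0403) and Jun did not (-0.40; limma adjusted p = 0.0535).

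**Figure D3:**
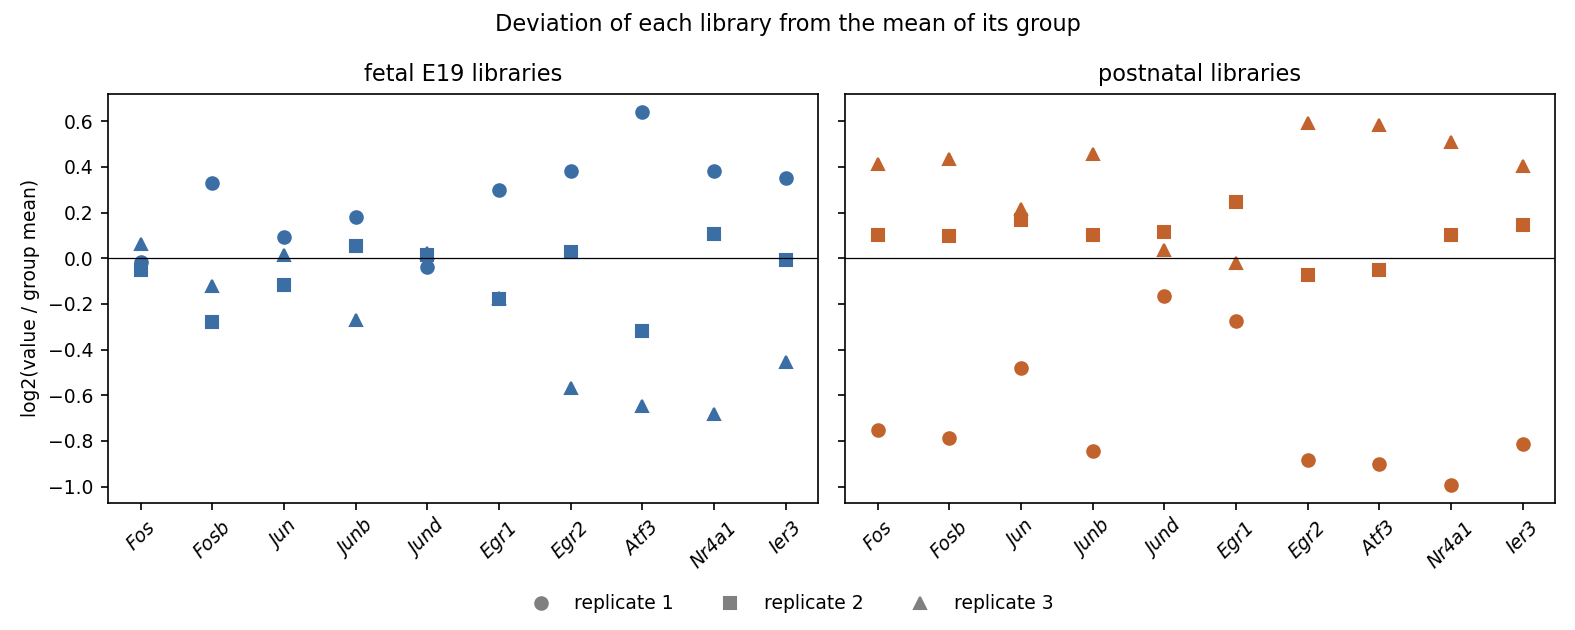
Log2 of each library's scaled CPM over the mean of its group (vertical axis) for the 10 members, fetal E19 on the left and postnatal on the right, with marker shapes for replicates. Postnatal replicate 1 lies below the other postnatal libraries for every member, by the most for Nr4a1 (-0.99) and by the least for Jund (-0.16).

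Centred profiles of log2(scaled CPM + 1) over the 6 libraries placed the members in neighbourhoods, measured by the root mean square difference in log2 units. Jun and Jund (0.17) and Fos and Fosb (0.19) were the closest pairs, followed by Junb and Ier3 (0.22) and Atf3 and Ier3 (0.22), and Jund and Nr4a1 (1.47) were the farthest apart. Outside the members, the profile most like Fos was that of Klf6 (0.07), a zinc finger gene that is itself an immediate early gene, followed by Rgs2 (0.12) and Rcan1 (0.13), which encode inhibitors of G protein and calcineurin signalling. Rcan1 and Rgs2 were also near Fosb, whose nearest gene was the heat shock gene Hsph1 (0.12). Nearest to Ier3 were Ppp1r15a (0.07), which encodes the phosphatase subunit GADD34, the polo-like kinase gene Plk3 (0.08) and the co-chaperone gene Bag3 (0.09). Atf3 had Thbs1, encoding thrombospondin 1 (0.13), Bag3 (0.24) and Stmn3 (0.26). Nr4a1 had Gprc5a (0.12), Tnfaip3 (0.18), an NF-kB feedback inhibitor, and Gem (0.19). Gprc5a was low, at 1.20, 1.16 and 0.092 scaled CPM in the fetal and 3.44, 8.53 and 9.32 in the postnatal libraries. Junb had Coq10b (0.07), Nfkbie (0.11) and Abcd2 (0.11), and Egr2 had the beta cell factor gene Nkx6-1 (0.12), Arc (0.14) and Tmtc2 (0.15). For Jund the nearest were Myl12a (0.04), Nkapd1 (0.04) and Akip1 (0.05), for Jun Fam83g (0.07), Hspa12a (0.08) and Trim6 (0.10), and for Egr1 Runx1 (0.08), Fblim1 (0.08) and P2rx2 (0.08). These are likenesses over 6 libraries that share their depth and cell mix. The added 1 compresses the changes of low genes, such as Gprc5a, Stmn3, Trim6, Runx1 and P2rx2. Their fold changes can therefore differ from those of the member beside them. Stmn3 and Gprc5a reached the filter on low values only with postnatal libraries counted, and Trim6 and Fam83g only with fetal ones. For these genes the filter may have favoured the direction shared with the member.

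Relatives of the members that take part in the same dimers or bind the same sites were read from lists. The shares over all genes tested, for each list here, were 30.0% higher and 33.1% lower. Of 7 AP-1 partner genes tested, 4 rose and none fell (median log2 fold change 0.57), and 1 rose with scaling to the plain column sum. Jdp2, a repressor that dimerizes with Jun proteins, stood at 2.43, 2.78 and 2.16 before birth and at 4.96, 9.09 and 9.80 after it (log2 fold change 1.33 ± 0.24; limma adjusted p = 0.00191). Mafk, a small Maf gene, rose by 1.17 ± 0.19. Of the relatives of EGR and NR4A, Nr4a2, Nr4a3, Nab1 and Nab2 were tested and called higher, 2 of the 4 with scaling to the plain column sum. Nr4a3 passed the filter on low values only through its postnatal libraries, so it lends no support to that count. Nr4a3 went from 1.17, 0.847 and 0.401 to 5.21, 15.0 and 21.8 (2.89 ± 0.44; limma adjusted p = 9.36e-04) and Nr4a2 from 8.85 ± 1.61 to 33.2 ± 14.6 (1.71 ± 0.32). Nab1 and Nab2, named after their values were seen and encoding corepressors of EGR proteins, rose by 0.39 and 0.61, whereas Egr1 and Egr2 did not pass. Egr3, also named afterwards and under the filter, stood at 0.553, 0.315 and 0.216 and at 0.810, 2.41 and 2.87.

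Of 41 other immediate early genes tested, 21 rose, 2 fell and 18 did not pass, with a median log2 fold change of 0.76 against -0.03 for all genes tested. The list held 50 genes, of which 43 were found by name. Ier2, Ier5, Zfp36, Zfp36l1, Errfi1, Cebpb and Mcl1 were not found. By the same rule 30.0% of all genes tested rose and 33.1% fell. Irf1, an interferon-induced factor, rose by 3.05 ± 0.36, from 17.9 ± 4.59 to 166 ± 75.5, and Cebpd, a leucine zipper factor of the acute phase response, by 2.77 ± 0.35. The 2 that fell were Homer1, a synaptic scaffold gene (-1.96 ± 0.12), and Plk2, a polo-like kinase gene (-0.99 ± 0.13). Of the 41, 38 were lowest in postnatal replicate 1, against 39.6% of all genes tested. The order of the labelled weeks was followed by 34, as by 8 of the 10 members, against 21.0% of all genes tested. The number that rose was 15 with scaling to the plain column sum, 18 without fetal replicate 3, 30 without postnatal replicate 1 and 27 without postnatal replicate 1 and fetal replicate 2.

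**Figure D4:**
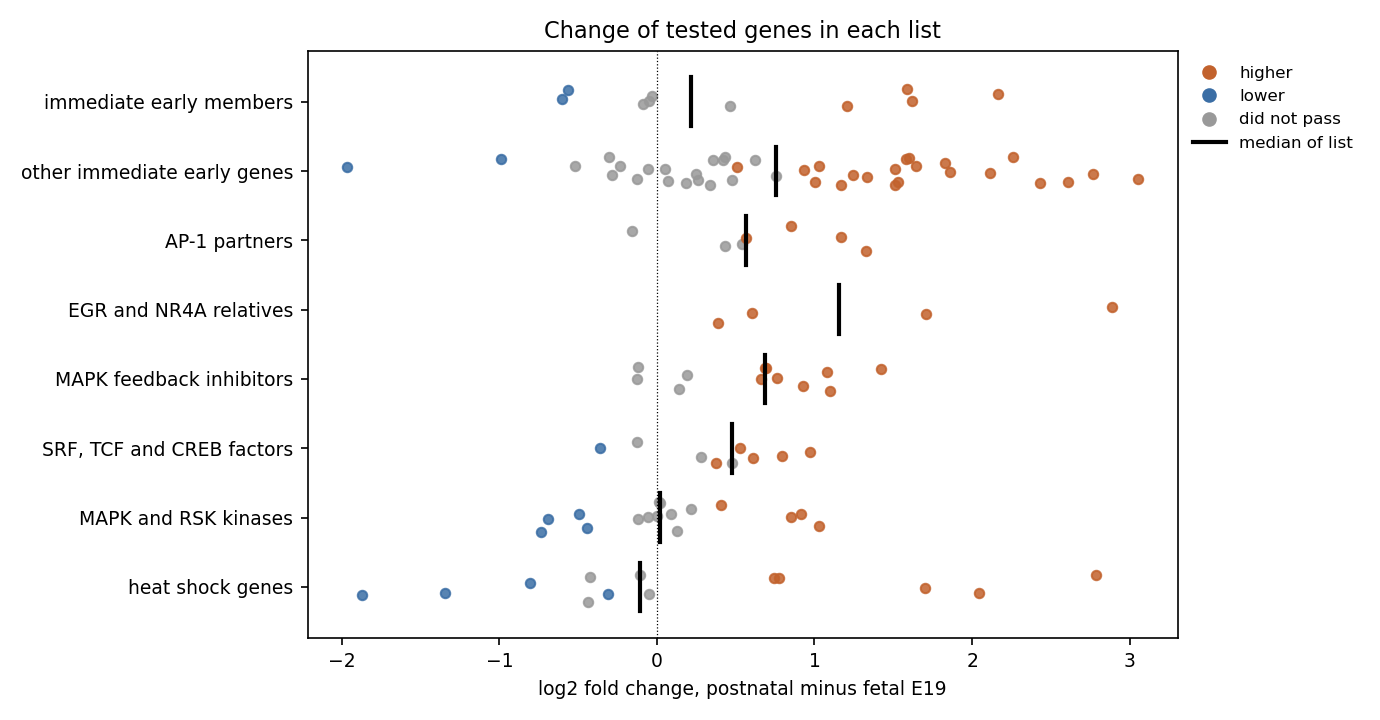
Log2 fold change, postnatal minus fetal E19 (horizontal axis), of each tested gene in 8 lists, coloured by whether limma called it higher, lower or neither; black bars are list medians. The bar of the members lies at 0.22 (0.06 to 0.55 when 1 library is left out) and that of the other immediate early genes at 0.76.

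Genes that restrain MAP kinase signalling, which is a main input to immediate early genes, rose in 8 of 12 cases and fell in none (median 0.69). Beside this and the lists below, 30.0% of all genes tested rose and 33.1% fell. Dusp1, a phosphatase gene that is itself immediate early, stood at 91.5, 85.2 and 63.9 before birth and at 129, 265 and 287 after it (1.42 ± 0.30; limma adjusted p = 0.00416). Spry2, an inhibitor of receptor tyrosine kinase signalling, rose by 1.10 ± 0.14. Scaled to the plain column sum, 2 of the 12 rose. Of 9 tested factors that carry such signals to the promoter, 5 rose and 1 fell: the CREB coactivator gene Crtc3 rose by 0.97 ± 0.22 and the SRF partner gene Elk3 by 0.79 ± 0.14, while Srf, the CArG box binding factor, fell by 0.36 on the log2 scale (SE 0.13; limma adjusted p = 0.0387). The Srf call did not hold in 11 of 22 alternatives, and none of the 5 rises held with scaling to the plain column sum. Of 16 kinase genes 4 rose and 4 fell, which is near the shares over all genes tested. The numbers were 10 and 3 after rescaling without the 20 highest genes, and 2 and 4 with scaling to the plain column sum. Mapk10, a JNK gene of neurons and endocrine cells, rose by 1.03 ± 0.20, having passed the filter only through its postnatal libraries, and Rps6ka5, the histone kinase gene MSK1, by 0.91 ± 0.12; Rps6ka1, an RSK kinase gene, fell by 0.74 on that scale.

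Heat shock genes, which respond to stress and tissue handling as several members do, moved both ways. Of 13 tested, 5 rose and 4 fell (median -0.11), which is near the shares over all genes tested. The list held 17 genes, of which Hspa1a, Hspa1b, Hspe1 and Hsp90aa1 were not found by name, so the counts do not cover them. The number that fell was 2 without fetal replicate 2, fetal replicate 3 or postnatal replicate 2, with the replicate block and after rescaling without the 20 highest genes, and 3 rose with scaling to the plain column sum. Hspb1, a small heat shock protein gene, rose from 22.7, 23.2 and 12.6 to 77.4, 166 and 194 (2.78 ± 0.36; limma adjusted p = 4.42e-04), and Cryab by 2.04 ± 0.16. The mitochondrial chaperonin gene Hspd1 fell by 1.87 on the log2 scale and Hsp90ab1 by 1.34. In 11 of the 13 the lowest postnatal library was replicate 1, against 39.6% of all genes tested. The share of handling in the levels of the members was not tested.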

How the data were processed

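The members and gene lists were chosen with earlier results of these data known. The context lists, that is those besides the members and the cell type markers, held 126 entries, of which 109 were found by name. The authors deposited 1 table of normalized signal per gene and library. The submitters' processing notes name TopHat2 2.0.8b and edgeR 3.30.3, and the genome build is not given in the sources used here. Within a library, 100% of the values were whole multiples of 1 constant (tolerance 0.001 reads), so reads could be recovered. The unnamed row, with 1 to 9 reads per library, was left out. Gene lengths were not used, so levels are not compared between genes.

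Genes with at least 1 scaled CPM in at least 3 libraries were fitted with limma 3.58.1 (R 4.3.3, trend) on log2(value + 1), which understates changes of low genes, with Benjamini-Hochberg adjustment over all 12926. On simulated data for this comparison (10 sets, median 12782.5 genes) the fit recovered 69.4% of 2-fold and 98.5% of 4-fold changes, with 5.08% false calls. Those percentages describe the simulated sets only. Whether they carry over to the sequenced libraries was not tested. There limma gave a call to 63.1% of the fitted genes, and acinar and hormone shares differed widely between groups. On recovered reads edgeR 4.0.16 called 4060 genes higher and 4068 lower, and DESeq2 1.42.0 called 4206 and 4160. Named genes were all members, the 2 largest rises and falls without overlap in each list, and the 3 tested genes with the profile nearest to each member. 1 gene that this rule names is not reported here. Replicate numbers were not used to pair libraries in the main fit.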

Additional observations from a re-analysis of the deposited data

How the results depend on the processing

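Over 22 alternatives, Nr4a1, Ier3 and Jund were called in all, Junb and Atf3 in 21, Jun in 12, Egr2 in 2 and Fos, Fosb and Egr1 in 0. With scaling to the plain column sum, 1780 genes were higher, 2 members were higher (without Junb and Atf3) and 25 listed context genes were higher, against 51. The number of members lower was 1, as Jun was lost, with edgeR, without a filter, with quantile normalization, with the replicate block, after scaling without acinar, hormone and erythroid markers, after scaling without the 20 highest genes, and without fetal replicate 2 and postnatal replicate 1. Context genes lower numbered 7 rather than 11 after scaling without the 20 highest genes. Leaving out 1 library gave 2863 to 3600 genes higher and 3518 to 4454 lower, 4 to 5 members higher, 1 to 2 members lower, 41 to 60 context genes higher and 7 to 12 lower.

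The log2 fold changes of Fos, Fosb and Egr1 changed sign, without a call, to 0.036, 0.054 and 0.0084 with DESeq2, 0.032, 0.051 and 0.0073 with edgeR, 0.32, 0.18 and 0.19 with quantile normalization, 0.034, 0.070 and 0.090 without the marker lists, 0.15, 0.19 and 0.21 without the 20 highest genes, and 0.22, 0.17 and 0.016 without fetal replicate 2 and postnatal replicate 1. Leaving out 1 library, they ranged from -0.33 to 0.25, -0.31 to 0.29 and -0.16 to 0.12, and the ratio of Jun to Jund from -0.064 to 0.18. The cause of these changes was not tested.

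Same-numbered libraries had correlations of their deviations from the group means of -0.21, 0.10 and -0.25. Those of differently numbered libraries ranged from -0.36 to 0.43. Deviations from a mean of 3 libraries offset each other, so these values cannot settle whether libraries were paired. With the replicate number as a block, 3563 genes were higher and 3863 lower, 4 members were higher and 1 lower, and 49 context genes were higher and 8 lower. Counting error came to at most 10.7% of a member's value, for Egr2, and the spread among its libraries was larger.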
